A study of Mus musculus with 18 samples.

Results

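The genes that flank *Rps2* on mouse chromosome 17 were examined in liver RNA. *Rps2* encodes a protein of the small ribosomal subunit and starts at chr17:24718116 on GRCm38. Members were all genes whose start lay within 1000000 bases of that position, *Rps2* itself left out, that reached 10 counts or more in 50% or more of either genotype's mice. The files listed 90 genes in this window, of which 58 passed the count rule, all 58 of them in both genotypes, and 32 were too low to test. The 58 genes were read out of a table of 13353 tested genes, so the rule used position and abundance and no difference between genotypes.

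Livers came from 10 A226Y mice and 8 WT mice, all female, 15 months old and of C57BL/6 strain. The A226Y mice are heterozygous for a knock-in *Rps2* allele with a mutated exon 3 and a *loxP*-flanked stop cassette in exon 1, and they carry CMV-Cre, a transgene whose promoter drives Cre recombinase in all tissues. The WT mice carry CMV-Cre on a wild-type *Rps2* locus. Excision of the cassette was never complete in these animals, so their livers mix cells that express the A226Y allele with cells in which that allele is silenced. The allele was built in 129/Sv embryonic stem cells and backcrossed to C57BL/6. Read counts show no alleles. Effects of the mutation, of the cassette and silenced allele in part of the cells, and of any 129/Sv DNA still linked cannot be told apart here. Neither can fewer cells of a type and less RNA per cell. The study also compared mice carrying the unexcised allele with wild-type mice. It reported low numbers of changed genes there and little overlap with the A226Y changes. Those mice were not used here.

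Genes do not sit alone on a chromosome. Neighbours can share a promoter read in both directions, overlap at their ends or lie under the same regulatory elements. In a knock-in strain, a stretch of chromosome on each side of the targeted gene is inherited together with the mutation. The neighbourhood of *Rps2* is dense and holds genes of unrelated function, among them *Tsc2*, which restrains mTOR, and *Pkd1*, whose product polycystin-1 is mutated in polycystic kidney disease.

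Short stretches of DNA show how closely some of these genes are packed. They were taken from the RefSeq promoter table on GRCm38.p6, in which 47 of the 58 genes had a record. Capitals mark matches, on either strand, to the CCAAT box (CCAAT), the GC box (GGGCGG), the ETS core (CCGGAAG) and the E-box (CACGTG), and the E-box was added after the sequences had been seen. The first set shows the space that separates *Gfer* from *Noxo1* (chr17:24696157-24696233, plus strand) and the 250 bases next to *Spsb3* of the space between *Nubp2* and *Spsb3* (chr17:24886393-24886642, plus strand), which leave out the bases next to *Nubp2*. Both pairs are transcribed away from each other, and in each 1 gene changed and the other was not called. The second set holds the gap between the end of *Atp6v0c* and the start of *Amdhd2* (chr17:24163767-24163865, minus strand), which were lower together, and the 250 bases before the RefSeq start of *Msrb1* (chr17:24736343-24736592, plus strand), the nearest gene whose genotypes did not overlap.
*Gfer*-*Noxo1*: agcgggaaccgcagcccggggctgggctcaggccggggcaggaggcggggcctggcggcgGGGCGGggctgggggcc
*Nubp2*-*Spsb3*: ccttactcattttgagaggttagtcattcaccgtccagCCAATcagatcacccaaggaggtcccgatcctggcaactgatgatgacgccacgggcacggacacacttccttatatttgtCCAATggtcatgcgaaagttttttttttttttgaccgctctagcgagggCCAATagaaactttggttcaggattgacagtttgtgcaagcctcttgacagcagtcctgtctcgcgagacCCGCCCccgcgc
*Atp6v0c*-*Amdhd2*: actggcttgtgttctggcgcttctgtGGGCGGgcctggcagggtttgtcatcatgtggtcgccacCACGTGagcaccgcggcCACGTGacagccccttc
*Msrb1*: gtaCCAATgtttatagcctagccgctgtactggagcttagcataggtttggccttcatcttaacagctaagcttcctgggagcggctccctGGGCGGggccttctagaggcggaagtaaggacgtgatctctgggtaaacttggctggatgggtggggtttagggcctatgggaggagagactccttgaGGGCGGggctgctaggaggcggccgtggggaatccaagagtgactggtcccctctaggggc

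The stretch between *Gfer* and *Noxo1* was 77 bases long, 85.7% G or C and held 8 CpG pairs and 1 GC box, which 21.7% of all 32851 promoters hold in the same number of bases. The piece upstream of *Spsb3* held 3 CCAAT boxes, a motif present at least once in 33.8% of promoters over 250 bases. The gap below *Atp6v0c* held 2 E-boxes in 99 bases, against 3.15% of promoters with any. Upstream of *Msrb1* there were 2 GC boxes, and 32.7% of promoters have 1 or more over that length. These matches describe the letters of the reference and say nothing about binding.

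The targeted gene was read first. *Rps2* lay between 46.9 and 83.0 CPM (read counts scaled to library size, with TMM factors) in the A226Y mice, with a median of 72.5, and between 104 and 143 in the WT mice, with a median of 109. Every A226Y mouse was below every WT mouse. The fitted log2 fold change of A226Y against WT was −0.73 ± 0.11 (SE), with an adjusted p of 0.000772 in edgeR's quasi-likelihood test, and 71.3% of the 50-base stretches of *Rps2* also occur in other annotated genes, mostly its own pseudogenes. Total counts ran from 23850565 to 62126131 per mouse in A226Y and from 25869192 to 34918732 in WT. All 5 hepatocyte markers were tested and 1 was higher. No marker of lymphocytes, endothelial, stellate, bile duct or erythroid cells was called, and 1 of 6 Kupffer cell markers was lower, a list whose summed level ran from 215 to 977 CPM in A226Y and from 328 to 624.8 CPM in WT. The part of Kupffer cells in the results below was not tested.

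Of the 58 neighbours, 21 (36.2%) differed between genotypes at an adjusted p under 0.05, against 14.3% of all tested genes. Higher levels in A226Y were found for 9 genes (15.5%, against 7.27% of all tested genes), and lower levels for 12 (20.7%, against 7.03%). The neighbours therefore did not move one way. With library size as the only scaling 17 were called, 9 higher and 8 lower, against 15.4% of all tested genes. Their median log2 fold change was −0.11, beside −0.0044 over all tested genes, and 36 of 58 values were below 0, as were 6804 of 13353. The median absolute log2 fold change was 0.200 in the neighbours and 0.139 over all tested genes. At an unadjusted p under 0.05, 9 neighbours were higher (15.5%, against 14.9% of all tested genes) and 21 lower (36.2%, against 14.7%). All A226Y mice lay above or below all WT mice for 5 neighbours (8.62%), against 0.637% of tested genes. These were *Pdpk1*, which was higher, and *Amdhd2*, *Atp6v0c*, *Rnps1* and *Msrb1*, which were lower. With library size as the only scaling 3 did not overlap (5.17%, against 0.839% of tested genes).

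**Figure D1:**
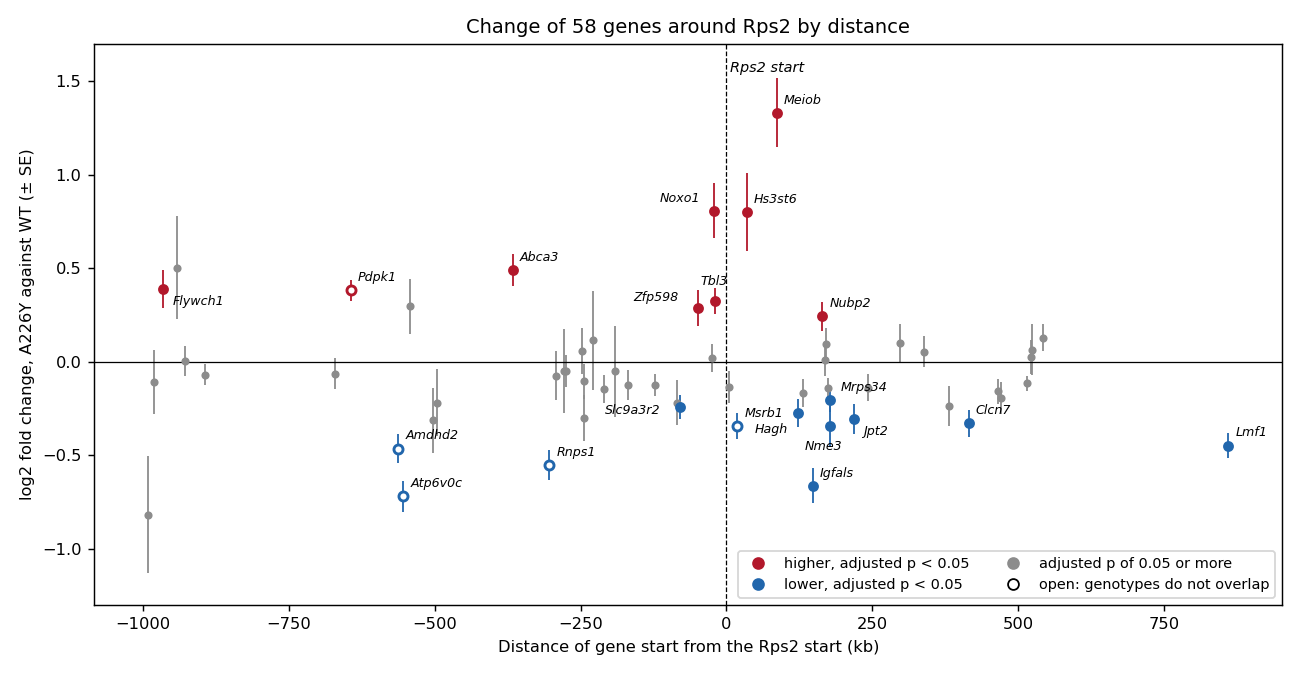
Log2 fold change of A226Y against WT (y axis, points with SE bars) against the distance of each gene's start from the *Rps2* start in kb (x axis) for 58 genes, red higher and blue lower at an adjusted p under 0.05, grey not called, open where the genotypes do not overlap. Red and blue points lie on both sides of *Rps2*, from 1.33 for *Meiob* to −0.72 for *Atp6v0c* among the called genes.

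The role lists below hold 4 to 12 genes each and are described by counts, beside 7.27% of all tested genes higher and 7.03% lower, and nothing particular to a list is read from them. Among genes of protein synthesis and protein quality, 2 of 6 were higher, 1 was lower and 3 did not pass. *Tbl3*, a component of the small subunit processome that matures ribosomal RNA, lies 20.2 kb below *Rps2*. It ranged from 20.5 to 29.03 CPM with a median of 23.3 in A226Y and from 16.99 to 21.5 CPM with a median of 18.6 in WT, a log2 fold change of 0.33 ± 0.07 (adjusted p = 0.00579). All but 2 of the A226Y mice were above every WT mouse. *Zfp598*, the ubiquitin ligase that marks collided ribosomes, was 0.29 ± 0.10 higher with an adjusted p of 0.04997, which lost its call in 13 of 18 fits without 1 mouse. *Mrps34*, a protein of the mitochondrial small ribosomal subunit, was −0.20 ± 0.06 (adjusted p = 0.0397) and lost its call in 10 such fits. Its reads are uncertain, since 77.8% of its 50-base stretches are also found in the overlapping *Mapk8ip3* and *Nme3*.

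Of 8 genes of growth signalling, *Pdpk1* was higher, *Igfals* was lower and 6 did not pass. *Pdpk1* encodes the kinase that activates Akt. Its level was 42.8 CPM in the lowest, 47.5 in the median and 53.6 in the highest A226Y mouse, against 32.7, 36.9 and 40.5 CPM in WT. No mouse of one genotype fell within the range of the other, and the log2 fold change was 0.38 ± 0.06 (adjusted p = 0.000772, two-sided exact permutation p = 2.29e-05, the smallest the 43758 divisions of the mice can give). *Igfals*, the liver-made subunit that keeps IGF in its circulating complex, ran from 82.6 to 142 CPM with a median of 104 in A226Y and from 131 to 197 CPM with a median of 170 in WT. It was below the WT range in 9 of 10 A226Y mice, with a log2 fold change of −0.66 ± 0.09 (adjusted p = 0.000701). The most abundant gene of the list that did not pass was *Tedc2*, at −0.31 ± 0.17 (adjusted p = 0.231). *Tedc2* encodes a centriole protein, so the list is broader than its name. Its log2 fold change moved to −0.64 and was called (adjusted p = 0.04965) with surrogate variables from scaled counts, was at −0.67 (adjusted p = 0.103) with those from CPM, and at −0.19 without WT replicate 6. *Tsc2* was at −0.12 ± 0.06 (adjusted p = 0.154).

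Mitochondria and metabolism held 12 neighbours, of which 3 were higher, 4 were lower and 5 did not pass, with a median log2 fold change of −0.11. *Msrb1*, a selenoprotein that repairs oxidised methionine, starts 18.5 kb above *Rps2*. It lay between 255 and 356 CPM in A226Y, with a median of 313, and between 358 and 446 CPM in WT, with a median of 396. The ranges missed each other narrowly, and the log2 fold change was −0.34 ± 0.07 (adjusted p = 0.00479, exact permutation p = 9.14e-05). *Amdhd2*, a deacetylase of amino sugar metabolism, lay between 14.1 and 18.7 CPM (median 16.6) in A226Y and between 19.7 and 28.4 CPM (median 22.2) in WT. Every A226Y mouse was below every WT mouse, with a log2 fold change of −0.46 ± 0.08 (adjusted p = 0.00149). *Hagh*, the glyoxalase that completes the removal of methylglyoxal, was lower by a smaller amount, −0.27 ± 0.08 (adjusted p = 0.0219).

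The metabolic genes that were higher included 2 of low level that sit close to *Rps2*. *Noxo1*, the organiser subunit of an NADPH oxidase, ranged from 1.30 to 1.97 CPM (median 1.66) in A226Y and from 0.699 to 1.37 CPM (median 0.903) in WT. In 9 of 10 A226Y mice it was above the WT range, with a log2 fold change of 0.81 ± 0.15 (adjusted p = 0.00265). The gene overlaps *Tbl3* on the other strand and shares 44.8% of its 50-base stretches with it, so the reads of these neighbours cannot be fully separated. *Hs3st6*, an enzyme that sulfates heparan sulfate, ranged from 1.43 to 2.75 CPM (median 2.36) in A226Y and from 0.66 to 2.26 CPM (median 1.26) in WT, which overlap in part. Its log2 fold change was 0.80 ± 0.21 (adjusted p = 0.0151). *Nubp2*, which helps to assemble iron-sulfur clusters in the cytosol, was at 0.24 ± 0.08 (adjusted p = 0.0401, lost in 11 of 18 fits without 1 mouse), and *Nme3*, a nucleoside diphosphate kinase, was lower.

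*Nme3* ranged from 13.5 to 29.3 CPM (median 19.1) in A226Y and from 20.1 to 28.4 CPM (median 24.4) in WT. One A226Y mouse was above all WT mice although the gene was lower on average, with a log2 fold change of −0.34 ± 0.11 (adjusted p = 0.0409). That call was lost in 9 of 18 fits without 1 mouse, and 90.1% of the 50-base stretches of *Nme3* are shared with *Mrps34* and *Mapk8ip3*. Close by, 2 mitochondrial genes did not pass. *Ndufb10*, a complex I subunit, was at −0.14 ± 0.09 (adjusted p = 0.30). Its lowest coordinate lies 3.9 kb and its transcription start 6362 bases from the *Rps2* start. *Gfer*, which encodes the sulfhydryl oxidase known as augmenter of liver regeneration, was at 0.02 ± 0.07 (adjusted p = 0.885).

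**Figure D2:**
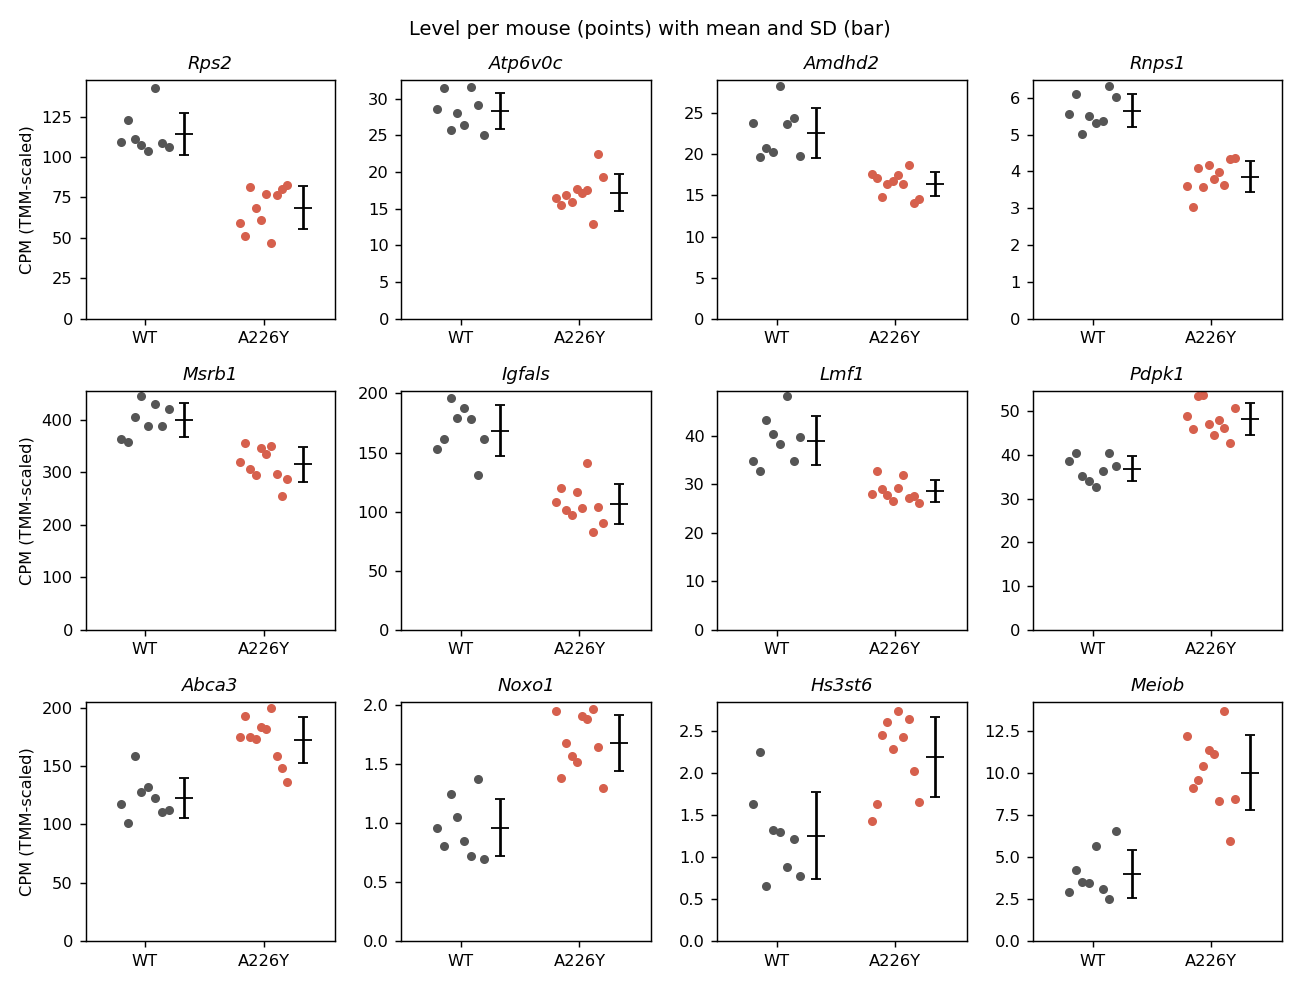
CPM of *Rps2* and 11 neighbours in each mouse (points), with mean and SD (bars, n = 10 A226Y and 8 WT), each panel on its own linear axis from 0. The genotypes do not overlap for *Rps2*, *Atp6v0c*, *Amdhd2*, *Rnps1*, *Msrb1* and *Pdpk1*, while 1 mouse of *Meiob* and *Noxo1* reaches into the other range.

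Transport and vesicle genes gave 1 higher, 4 lower and 4 not called of 9, with a median log2 fold change of −0.14. *Atp6v0c*, the proton-carrying ring subunit of the vacuolar ATPase that acidifies lysosomes, was the gene with the smallest p of all neighbours. It lay between 12.9 and 22.5 CPM (median 17.01) in A226Y and between 25.1 and 31.6 CPM (median 28.3) in WT. No mice overlapped, and the log2 fold change was −0.72 ± 0.08 (adjusted p = 0.000159, exact permutation p = 2.29e-05), close in size to that of *Rps2* itself. A share of 12.2% of its 50-base stretches recurs in its pseudogenes *Atp6v0c-ps1* and *Atp6v0c-ps2*.

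*Abca3*, a lipid transporter of lamellar bodies in the lung, was the transport gene that was higher. It ran from 136 to 200 CPM (median 175) in A226Y and from 102 to 158 CPM (median 120) in WT. In 8 of 10 A226Y mice it exceeded every WT mouse, with a log2 fold change of 0.49 ± 0.09 (adjusted p = 0.00219), and 14.3% of its 50-base stretches are shared with *D330041H03Rik* and *Abca17*. *Lmf1*, a factor of the endoplasmic reticulum needed to mature lipoprotein and hepatic lipases, was the farthest called gene on the higher side at 861 kb. It ran from 26.1 to 32.8 CPM (median 27.9) in A226Y and from 32.8 to 48.2 CPM (median 39.1) in WT, so that the ranges met at their ends, with a log2 fold change of −0.45 ± 0.07 (adjusted p = 0.00104). *Clcn7*, a lysosomal chloride and proton exchanger, ran from 29.5 to 35.7 CPM (median 31.0) in A226Y and from 31.0 to 48.4 CPM (median 40.8) in WT. Its ranges overlapped in 5 of 10 A226Y mice, with a log2 fold change of −0.33 ± 0.07 (adjusted p = 0.0061). *Slc9a3r2*, a PDZ scaffold for membrane transporters, was at −0.24 ± 0.07 (adjusted p = 0.0207).

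Of 8 genes of gene expression and DNA, 1 was higher, a share near the 14.3% of all tested genes called in either direction, and none was lower. The list leaves out *Rnps1*, an RNA-binding protein that was lower and is described below. *Flywch1*, a zinc finger protein near the far end of the window at 965.3 kb below *Rps2*, ran from 13.3 to 24.5 CPM (median 16.0) in A226Y and from 10.96 to 15.2 CPM (median 12.7) in WT. The upper A226Y mice stood above the WT range and the lower ones within it, with a log2 fold change of 0.39 ± 0.10 (adjusted p = 0.0167). It shares 35.4% of its 50-base stretches with the overlapping *9530082P21Rik*. *Srrm2*, a scaffold of nuclear speckles, and *Eme2*, a partner of the Mus81 nuclease, stood at 0.01 ± 0.08 (adjusted p = 0.976) and 0.10 ± 0.08 (adjusted p = 0.459). None of the 4 genes of cilia and polarity passed, among them *Pkd1* at −0.12 ± 0.08 (adjusted p = 0.305) and the membrane protein gene *Tmem204* at 0.05 ± 0.08 (adjusted p = 0.71).

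The 11 neighbours in no list gave 1 higher and 2 lower. *Meiob*, a single-stranded DNA-binding protein of meiosis, had the largest log2 fold change of the 58. It ran from 5.94 to 13.7 CPM (median 10.01) in A226Y and from 2.52 to 6.57 CPM (median 3.48) in WT. In 9 of 10 A226Y mice it was above the WT range, and the log2 fold change was 1.33 ± 0.18 (adjusted p = 0.000701, exact permutation p = 4.57e-05). *Rnps1*, an RNA-binding protein of the exon junction complex, ran from 3.02 to 4.36 CPM (median 3.88) in A226Y and from 5.02 to 6.32 CPM (median 5.53) in WT. The genotypes were apart in every mouse, at −0.55 ± 0.08 (adjusted p = 0.000701). *Jpt2*, a microtubule-associated protein, was at −0.31 ± 0.08 (adjusted p = 0.0164).

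**Figure D3:**
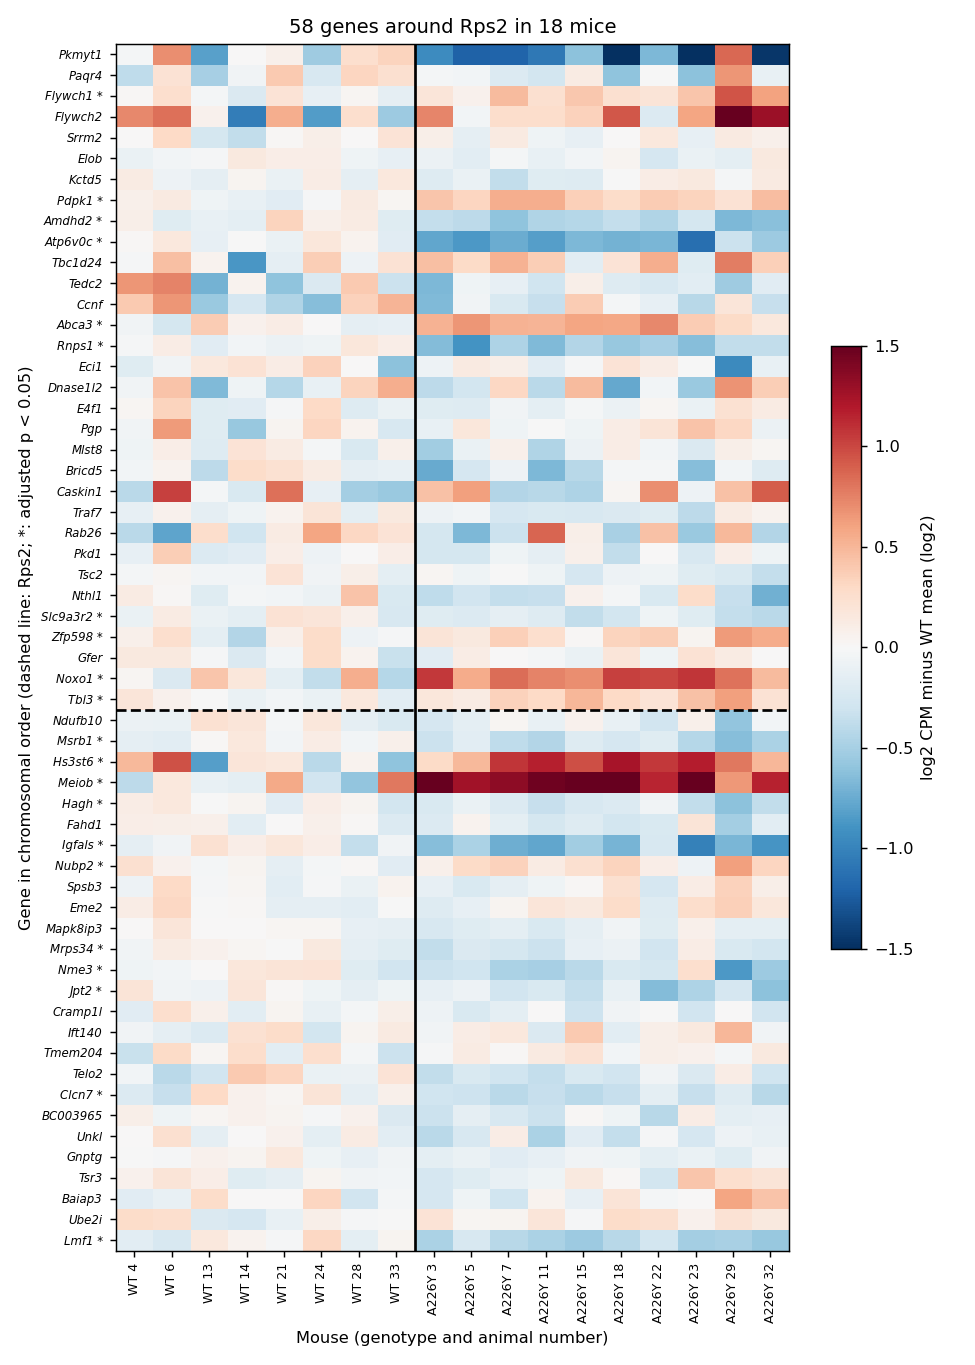
Log2 CPM of each gene in each mouse minus the WT mean of that gene (colour, blue lower and red higher), with 58 genes in chromosomal order from top to bottom, 8 WT columns left of the black line and 10 A226Y columns right of it, and a dashed line at *Rps2*. Rows that are blue in all 10 A226Y mice (*Atp6v0c*, *Rnps1*) stand a few places from rows that are red in all 10 (*Pdpk1*, *Abca3*).

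Direction was then read against distance. Within 100 kb of *Rps2*, 7 of 10 genes were called (70%), 5 higher and 2 lower, with a median log2 fold change of 0.15. With surrogate variables only *Meiob* of these 10 genes was called (10%, against 0.374% of all tested genes in that fit), and 3 were (*Meiob*, *Noxo1* and *Slc9a3r2*; 30%, against 2.13%) when those variables came from scaled counts. From 100 to 250 kb the count was 6 of 19 (31.6%), of which 5 were lower and 1 higher, with a median of −0.14. All 6 lay on the side of higher coordinates, where 11 genes were tested, and 0 of 8 on the other side passed in edgeR, DESeq2 or limma-voom, with 2 at an unadjusted p under 0.05 in edgeR. With an offset on transcript length, *Pkd1* (−0.29) and *Tsc2* (−0.20) passed on that other side. On the side of higher coordinates *Hagh*, *Mrps34* and *Nme3* then lost their calls, and *Mapk8ip3* and *Cramp1l* gained them. From 250 to 500 kb, 3 of 12 genes passed (25%), and from 500 to 1000 kb, 5 of 17 (29.4%), beside 14.3% of all tested genes. With surrogate variables the bands beyond 100 kb held 0 of 19 (7 at an unadjusted p under 0.05), 2 of 12 and 2 of 17 called genes, beside 0.374% of all tested genes, and with those from scaled counts 2 of 19, 2 of 12 and 6 of 17, beside 2.13%. Without covariates the shares from 100 to 1000 kb lay between 25% and 31.6%. Of the 5 genes without overlap, 3 (*Pdpk1*, *Amdhd2* and *Atp6v0c*, consecutive in the member list) lay in the band farthest from *Rps2*.

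Over the 58 genes, distance and log2 fold change gave Pearson's r = −0.143 and Spearman's rho = −0.057. For the absolute log2 fold change these were −0.002 and −0.040. The points share libraries and position, so both are descriptions without a test, and neither shows a graded fall of size with distance. Both sides of *Rps2* held genes of both directions, with 6 higher and 4 lower among 32 genes of lower coordinates and 3 higher and 8 lower among 26 genes of higher coordinates. Of 57 pairs of next neighbours, 35 had the same sign. In chromosomal order, *Amdhd2* and *Atp6v0c* were followed by *Abca3* in the opposite direction and *Rnps1* back in the first, and the 5 called genes from *Mrps34* on were all lower.

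Beyond 1 Mb the shares were lower. From 1 to 2 Mb, 5 of 41 genes of chromosome 17 were called (12.2%), all lower, and from 2 to 5 Mb, 6 of 65 (9.23%). Farther out the shares were 16.5% of 109 genes between 5 and 10 Mb, 19.1% of 131 between 10 and 20 Mb and 13.6% of 243 beyond 20 Mb. Genes without overlap between genotypes numbered 10 among 647 tested genes of the chromosome without *Rps2*, 5 of them inside the window of 58 genes. Over all 13353 tested genes the share without overlap was 0.637%. The nearest outside it was *Fam173a* at 1.07 Mb, with a log2 fold change of −0.27. The difference between the window and the rest of the chromosome was not tested, since genes are not replicates.

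**Figure D4:**
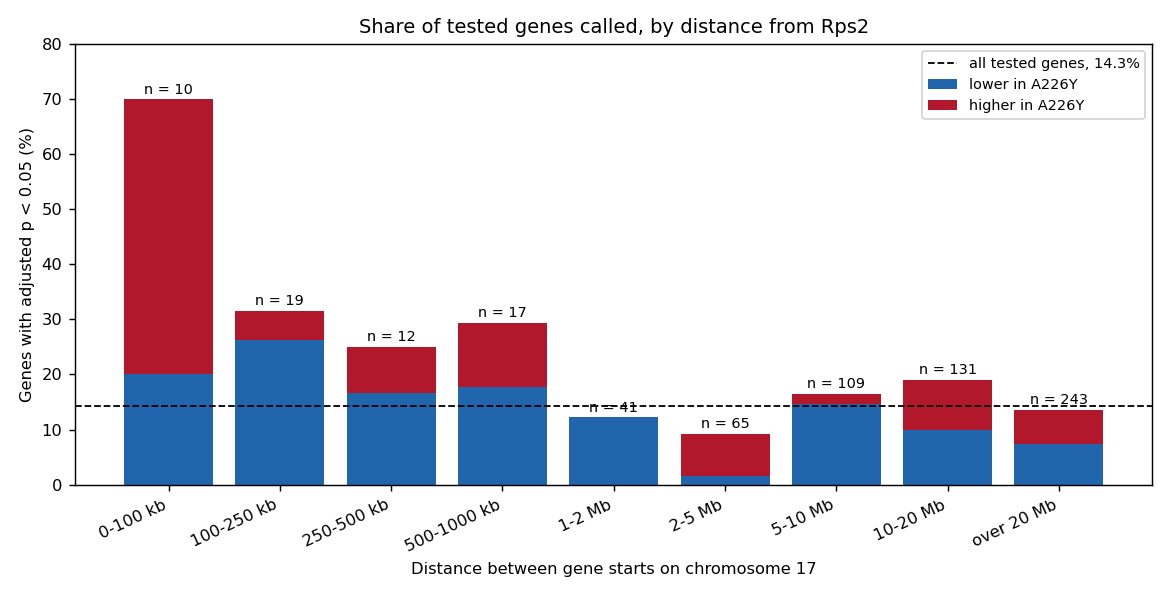
Percent of tested chromosome 17 genes with an adjusted p under 0.05 (y axis) by distance from *Rps2* (x axis, both sides together, bands of unequal width), split into lower (blue) and higher (red) in A226Y, with the number of tested genes above each bar and the share over all tested genes, 14.3%, as a dashed line. The bar within 100 kb stands at 70% of 10 genes, which falls to 10% with surrogate variables (against 0.374% of all tested genes in that fit), and the bars beyond 1 Mb lie between 9.23% and 19.1%.

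Genes transcribed away from each other were read as pairs. Among the neighbours, 7 pairs are transcribed away from each other with starts at most 1000 bases apart, and no pair had both genes called. *Noxo1* rose by 0.81 while *Gfer*, 78 bases away, was at 0.02. *Nubp2* was at 0.24 and *Spsb3*, 294 bases away, at 0.01 (adjusted p = 0.962). *Mrps34* was at −0.20 and *Eme2*, 29 bases away, at 0.10. *Spsb3* shares 61.7% and *Eme2* 53.3% of its 50-base stretches with overlapping genes, and *Gfer* 27.4% with *Dst*. Of the called partners, *Noxo1* shares 44.8% with *Tbl3*, and *Mrps34* shares 77.8% with *Mapk8ip3* and *Nme3*. The values of all these genes may therefore hold reads of other genes. The differences within pairs were not tested. In the other 4 pairs (*E4f1* and *Pgp*, *Tsc2* and *Nthl1*, *Cramp1l* and *Ift140*, *Gnptg* and *Tsr3*) neither gene passed.

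The neighbours had a median transcript GC content of 54.7%, against 49.8% over all tested genes, and a median transcript length of 2600 bases against 3349. These properties also moved with the genotype comparison, since over 13300 genes the log2 fold change gave rho = −0.207 with GC content and 0.253 with length. Among the 58 neighbours these values were 0.097 and 0.139. With an offset per library on transcript length, 21 neighbours were called (36.2%, against 11.7% of all tested genes), and with an offset on GC content 17 were (29.3%, against 12.3%). *Slc9a3r2*, *Hagh*, *Mrps34* and *Nme3* lost their calls under both. With the length offset alone, *Tsc2* (−0.20), *Pkd1* (−0.29), *Mapk8ip3* (−0.24) and *Cramp1l* (−0.24) passed as lower. Leaving out genes that share over 10% of their 50-base stretches with other genes gave 14 of 40 (35%), and leaving out genes that overlap another annotated gene gave 13 of 25 (52%). No share over all tested genes under the same restrictions stands beside these values, so they cannot be placed against a background.

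With 4 surrogate variables as covariates, which take up differences between libraries not given in the labels, the count fell to 5 neighbours (8.62%), against 0.374% of all tested genes. The calls that held were *Atp6v0c* (−0.82, adjusted p = 0.000107), *Rnps1* (−0.72, adjusted p = 0.000997), *Abca3* (0.71, adjusted p = 0.000997) and *Meiob* (1.43, adjusted p = 0.00421). The other gene called there, *Pkmyt1*, a kinase that holds back entry into mitosis and is named here after its values were seen, was at −1.24 (adjusted p = 0.0419), and at −0.82 ± 0.31 (adjusted p = 0.0818) without covariates. Adjusted p-values of the genes that lost their calls began at 0.0505 for *Pdpk1*, 0.0748 for *Igfals* and 0.0793 for *Hagh*, followed by 0.0799 for *Amdhd2* and *Noxo1*. When the surrogate variables were estimated from scaled counts in place of CPM, 13 neighbours were called (22.4%, against 2.13%). All 21 genes kept their direction in each of these fits. With surrogate variables from CPM the log2 fold change shrank by over 1.5 times for *Flywch1* (to 0.14), *Clcn7* (−0.12), *Zfp598* (0.11), *Hs3st6* (0.41), *Msrb1* (−0.18, adjusted p = 0.205), *Lmf1* (−0.25), *Tbl3* (0.18), *Jpt2* (−0.20), *Nme3* (−0.22) and *Pdpk1* (0.25).

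**Figure D5:**
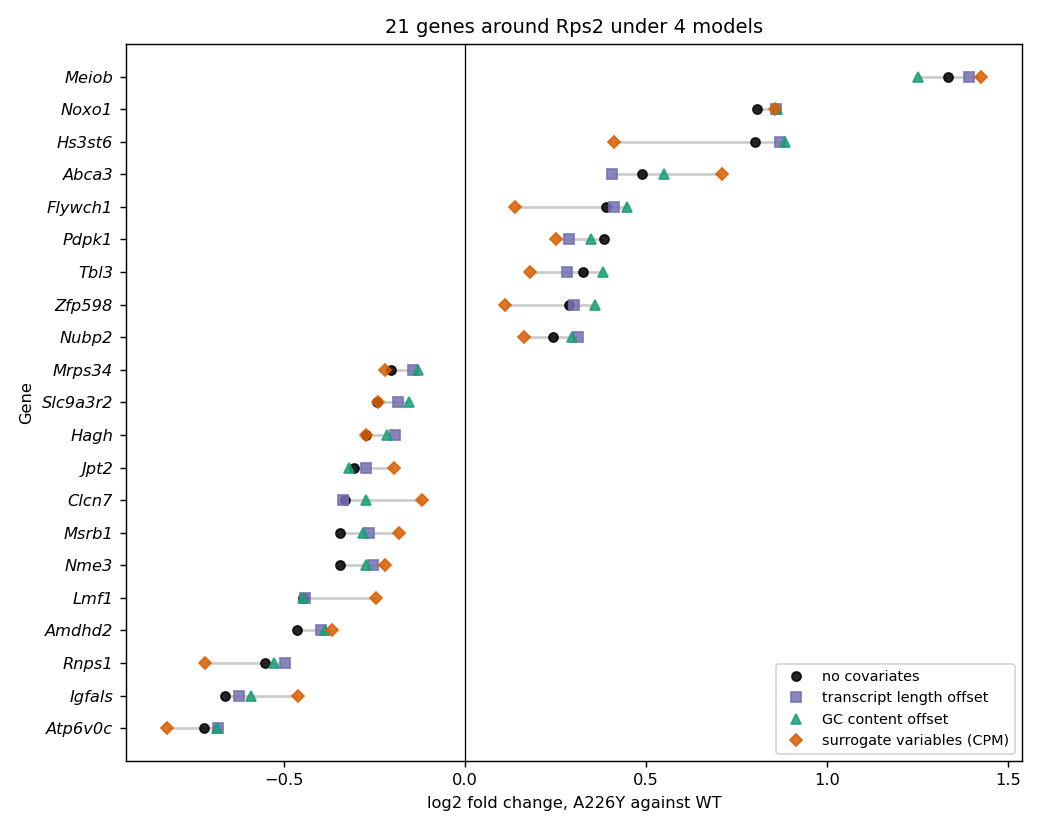
Log2 fold change of A226Y against WT (x axis) of the 21 called genes (y axis) without covariates (black circles), with an offset on transcript length (squares), with an offset on GC content (triangles) and with surrogate variables estimated from CPM (diamonds). No gene crosses 0, and *Hs3st6* moves from 0.80 to 0.41 and *Clcn7* from −0.33 to −0.12 with surrogate variables.

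*Rps2* varied among the A226Y mice, so each neighbour was compared with it within a genotype. Over 116 relations (58 genes in 10 A226Y and in 8 WT mice, permutation tests), 0 passed an adjusted p of 0.05 by Pearson's r or Spearman's rho, and 16 had an unadjusted p under 0.05 by Pearson's r, 11 of them in A226Y. By Pearson's r the lowest adjusted permutation p was 0.196, for *Igfals* in A226Y (r = −0.83, rho = −0.75), and r was −0.57 without the 2 mice farthest from the median of *Rps2*. By Spearman's rho the lowest adjusted exact permutation p was 0.132, for *Ift140* in WT (rho = −0.95, r = −0.77, and r = −0.90 without 2 mice). The median r was 0.02 in A226Y and 0.12 in WT. Differences between mice in *Rps2* were therefore not shown to go with the level of any neighbour at this number of mice.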

How the data were processed

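Liver RNA (Trizol, single 50-base reads) was sequenced in 1 library per mouse. The authors deposited one list of whole-number read counts per mouse, by Ensembl gene and not normalized. The study's methods name RSEM and GRCm37, while the submitters' processing notes name fastp, STAR, featureCounts and GRCm38, so the counter is uncertain, and strand use in counting is not given in the sources used here. Reads of overlapping, antisense or near-identical genes may therefore be split between them.

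The files list 22524 genes, of which 22214 matched GENCODE M21 on GRCm38 for symbols and positions. Genes with at least 10 counts in 50% of the mice of one genotype (13353) were tested with edgeR 4.0.16 in R 4.3.3 (TMM scaling, quasi-likelihood fit, no covariates, two-sided, Benjamini-Hochberg over all tested genes). The SE is the log2 fold change divided by the square root of F. The common biological coefficient of variation came to 0.194. Each mouse had at least 23850565 counts, but members of low level had as few as 5 counts in a mouse, where counting error is large. Named genes were also compared by exact permutation of log2 CPM.

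Distances run from gene start to gene start, where the start is the lowest coordinate of a gene on either strand. For the printed sequences and for genes transcribed away from each other, starts and ends are those of transcription. Shared sequence is the percent of a gene's 50-base transcript stretches found in another annotated gene. Alternatives were other scalings and filters, DESeq2 1.42.0, limma-voom 3.58.1, 4 surrogate variables (sva 3.50.0), loess offsets (pseudocount 0.5, span 0.3) and leaving out each mouse. Length and GC content are those of the longest annotated transcript. The procedures were tested on simulated data.

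The members, gene lists and tests were chosen with earlier results of these data known. Genes named by rule are all called members, those without overlap between genotypes, the 5 nearest on each side and the most abundant of each list. Some others were named outside this rule, among them *Tsc2*, *Pkmyt1*, genes that passed only in an alternative, and partners in pairs. Groups follow the genotype labels, and replicates are separate mice.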

Additional observations from a re-analysis of the deposited data

Results flagged for a closer look

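The level of *Nme3* in A226Y replicate 23, the deepest library, was 29.3 CPM, and the next A226Y mouse was at 21.04 CPM. The gap between them was 0.524 of the range of the 10 A226Y mice, above the Dixon critical value of 0.466. This was 1 flag in 58 groups of mice tested, and chance flags about 5% of groups. Most of the sequence of *Nme3* is shared with *Mrps34* and *Mapk8ip3*, and the part of shared reads in this value was not tested. The groups did not cover all neighbours in both genotypes. *Pkmyt1*, for example, was at 1.41 CPM in A226Y replicate 29 and at most at 0.506 CPM in the other A226Y mice.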

How the results depend on the processing

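All 21 called genes kept their direction in every alternative, and between 17 and 21 of them stayed called when 1 mouse was left out. Called under every alternative were 4 genes (*Abca3*, *Atp6v0c*, *Meiob* and *Rnps1*), and 15 under every one but surrogate variables. No share over all tested genes stands beside these counts, so they describe the genes and not the neighbourhood. Called neighbours numbered 5 with surrogate variables, 13 with those from scaled counts (chosen after seeing the data) and 13 without overlapping genes, where fewer genes are counted, beside 21. Within 100 kb (read under the alternatives after seeing the data) 7 genes were called without covariates, 1 and 3 with these surrogate variables and 6 or 7 with 1 mouse left out. Over all tested genes the counts were 50 and 285 with these surrogate variables, beside 1910, and 1255 to 2560 with 1 mouse left out. The lowest came without WT replicate 14 and the highest without A226Y replicate 29. The cause was not tested. With library size as the only scaling, 3 neighbours had no overlap, beside 5: *Pdpk1* and *Rnps1* were kept, *Amdhd2*, *Atp6v0c* and *Msrb1* were lost and *Meiob* was gained. Of the 58 genes, 15 changed sign in some alternative, none of them called. Those chosen by the rule for named genes were *Srrm2* (−0.146 with surrogate variables, −0.148 from scaled counts, −0.116 with the length offset, −0.042 to 0.051 without 1 mouse), *Gfer* (−0.051, −0.062 and −0.023 to 0.061 for the same settings except length) and *Eme2* (−0.104 and −0.042 with surrogate variables). Of the paired genes, *Spsb3* moved to −0.142, *Pgp* to −0.127 and *Tsr3* to −0.173 with surrogate variables, and *E4f1* to 0.019 with the GC offset. The median log2 fold change of the 58 genes stayed between −0.14 and −0.05. No paired analysis was possible because the genotypes share no replicate numbers. Genes at few counts, such as *Pkmyt1* and *Noxo1*, are limited by depth.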

Other observations

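The 32 genes of the window that were too low to test are mostly known from tissues other than liver. They include a row of serine protease genes on both sides of *Rps2* (*Prss21*, *Prss22*, *Prss27* to *Prss30*, *Prss32* to *Prss34* and *Prss41*) and the mast cell tryptases *Tpsab1*, *Tpsb2* and *Tpsg1*. In 11 of the 32 no mouse had a count, and the highest count in any mouse was 27, for *Prss29*. *Rnf151* and *Rpl3l*, which start nearest to *Rps2* among these 32 genes, at −2.3 and 9.7 kb, had at most 3 and 10 counts in any mouse.

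The neighbours that passed at an unadjusted p under 0.05 and not at the adjusted one were all lower, among them (chosen after their values were seen) *Tsc2*, *Telo2*, which helps to fold mTOR and related kinases, *Gnptg*, which tags lysosomal enzymes, and *Fahd1*, a mitochondrial oxaloacetate decarboxylase, at log2 fold changes of −0.12, −0.24, −0.12 and −0.17. With surrogate variables *Telo2* was at −0.02 (adjusted p = 0.961).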
